A study of Mus musculus with 12 samples.

Results

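The clustered protocadherins were examined as the 59 gene rows whose symbols name an alpha, beta or gamma member of the family, out of 23282 rows listed for each library. They comprised 15 alpha, 22 beta and 22 gamma rows. The family was chosen by the values of 1 of its rows, Pcdhga3, which read higher in HD than in WT brain at 8 weeks but not at 13 weeks. Comparisons of HD with WT mice are therefore given below as description, without p-values for members. The mice were R6/2, which carry a transgene holding the first exon of human HTT with an expanded CAG repeat under the human HTT promoter, on top of their own Htt genes, and their WT littermates. RNAseq covered striatum and cortex of HD mice at 8 weeks (pre-symptomatic) and 13 weeks (post-symptomatic), with 2 libraries for each region and age. WT littermates gave 1 library for each region and age, making 12 libraries in all.

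Clustered protocadherins are cell adhesion proteins of the neuronal surface. Each neuron switches on a small, largely random set of promoters, and the resulting proteins pair with identical partners on other membranes, which lets branches of 1 neuron recognize and avoid each other. In the alpha and gamma clusters, every promoter drives its own variable first exon, which is spliced to constant exons shared by the whole cluster. Beta genes have no constant exons, and each ends in its own 3′ sequence. The C-type isoforms (Pcdhac1, Pcdhac2, Pcdhgc3, Pcdhgc4 and Pcdhgc5) are produced more evenly across neurons than the others, and the choice among the remaining promoters depends on CTCF, cohesin and DNA methylation.

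The arrangement of these genes sets what a 3′ library can tell apart. In the GRCm38 (mm10) annotation of GENCODE, all 3 clusters lie on the plus strand of chromosome 18, alpha at chr18:36930184-37187661, beta at chr18:37264938-37524479 and gamma at chr18:37661793-37841873. All 22 gamma genes had a transcript whose last exon began at the same base, chr18:37839903-37841873, and 11 of the 13 alpha genes placed in that annotation shared the last exon chr18:37184946-37187657. All 22 beta genes were placed with a single exon. When the last 400 bases of each transcript were read in windows of 50 bases, every window of all 13 alpha transcripts was also found in another member. The same held for 21 of the 22 gamma transcripts, and for the other, Pcdhgb8, 92.9% of windows were shared. Among beta transcripts, 21 of 22 had no shared window, and the exception was Pcdhb21, whose end lies inside the neighbouring Pcdhb22. A read from the 3′ end of an alpha or gamma transcript therefore does not show which promoter made it.

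The deposited rows nevertheless did not repeat the shared reads from gene to gene. In the alpha cluster, 97.7% to 99.6% of reads per library stood in the row Pcdhac1, with 1185 to 3666 reads. The other 14 alpha rows held 9 to 68 reads together in a library, and the largest single count among them was 36, in Pcdha11. In the gamma cluster, 96.5% to 99.7% of reads stood in the row Pcdhga9, with 4623 to 8408 reads. The other 21 gamma rows summed to 22 to 198 reads, and the largest count among them was 99, in Pcdhga3. Pcdhac1 is a C-type alpha isoform, whereas Pcdhga9 is an ordinary gamma-A isoform from the middle of its cluster. The counting rule is not given in the sources used here, and where in these genes the reads lie was not seen. That they are the shared 3′ reads is inferred from the 3′ library and the row totals. Below, both rows are read as the 3′ output of their clusters, not as the level of those isoforms.

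No row pair within a cluster held the same counts in all libraries (0 of 105 pairs in alpha, 0 of 231 in beta and 0 of 231 in gamma). Partial duplication was nevertheless seen at the low end. Pcdha4 equalled the row Gm37013, which is no member, in 12 of 12 libraries, although both held only 7 reads in total. Pcdha7 and the row Pcdha7-g were equal in 10 of 12 libraries, with totals of 12 and 19 reads. The beta cluster was divided more evenly, since its highest row, Pcdhb7, took 9.77% to 21.3% of its reads and 12 of 22 rows had at least 10 reads in every library. Across the family, 58 of 59 rows had a read in some library, and Pcdhga2 had none in any of the 12. For a row at 0, a floor of 3 reads allowed up to 0.254 to 0.351 CPM (reads per 1000000 of a library, with libraries scaled by TMM), depending on the library.

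**Figure D1:**
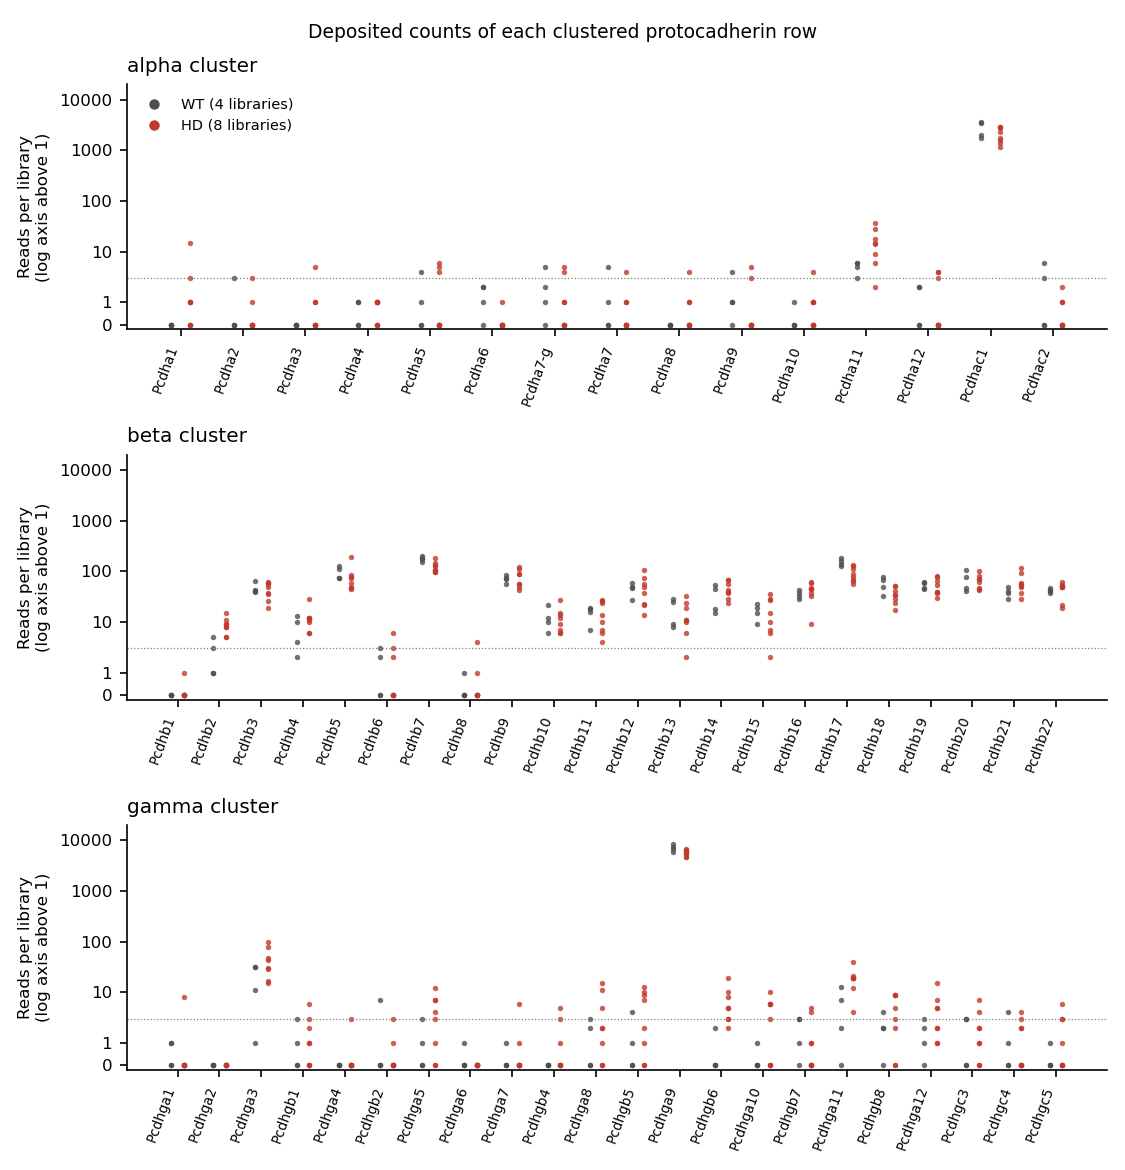
Deposited reads (y axis, logarithmic above 1) for each row of the alpha, beta and gamma clusters (x axis, in the order of the files), with 1 point per library, grey for the 4 WT and red for the 8 HD libraries; the dotted line marks 3 reads. Pcdhac1 and Pcdhga9 stand at 1185 or more reads in every library while no other alpha or gamma row passes 99, and beta rows fill the range between.

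Libraries had 8814386 to 12091201 reads in all, and rRNA precursor (Rn45s) took 10.5% to 15.2% of them in HD and 4.32% to 5.62% in WT. Striatal markers (9 genes) summed to 1385 to 7733 CPM in striatum and 134 to 373 CPM in cortex, although Drd2 had at most 4 reads in any library. Replicate 2 of pre-symptomatic HD striatum stood apart, with 2308 CPM of striatal markers against 7332 CPM in replicate 1. It also held 19765 CPM of oligodendrocyte markers (7 genes; 2237 to 6952 CPM in the other 11 libraries) and 1598 CPM of thalamic markers (4 genes; 83.6 to 267 CPM elsewhere). Replicate 2 of post-symptomatic HD cortex held 3013 CPM of choroid plexus markers (5 genes), against 962 CPM in that striatal library and 2.30 to 125 CPM in the other 10. By Xist and Y-linked genes, replicate 1 of each HD group was male and replicate 2 female, while both WT libraries were female at 13 weeks and male at 8 weeks. The labels do not say whether replicates came from separate animals or whether both regions came from 1 mouse, so p-values measure only the spread between these libraries.

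To compare the regions, striatum was set against cortex over all 12 libraries. This comparison had no part in the choice of the family. The alpha output was lower in striatum than in cortex, and it was the only member difference to pass the test. In post-symptomatic HD mice, Pcdhac1 read 166 and 127 CPM in striatum and 248 and 206 CPM in cortex. In pre-symptomatic HD mice it read 189 and 154 CPM in striatum and 301 and 307 CPM in cortex. WT striatum held 189 CPM at 13 weeks and 177 CPM at 8 weeks, and WT cortex 296 and 311 CPM. Every striatal library thus lay below every cortical library. The log2 difference was -0.73 (SE 0.10), with an adjusted p = 0.000312 in edgeR's quasi-likelihood fit, and it was -0.68 without the striatal library that stood apart. Of 25 members tested, 1 was called (0 higher and 1 lower in striatum), beside 20.6% of all genes tested, 8.51% higher and 12.1% lower. In bulk tissue, fewer cells of a type and less RNA per cell cannot be told apart.

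The alpha difference was also fitted in each genotype, a choice made after the data were seen. It was -0.73 in HD (SE 0.13, adjusted p = 0.00285 by edgeR) and -0.73 in WT (SE 0.18, adjusted p = 0.0213 by edgeR). Here 1 of 25 members was called in each genotype, beside 13% of all genes in HD and 11.1% in WT. The spread behind the WT p-value came mostly from the HD libraries. Leaving out any 1 of the 4 WT libraries, after which the WT value rests on the pair of the other age, ended the WT call, with log2 differences from -0.82 to -0.64 and adjusted p from 0.136 to 0.358. The difference between the genotypes was 0.00 (SE 0.22) with a 95% interval of -0.42 to 0.43.

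The gamma output behaved otherwise. Pcdhga9 read 502 and 494 CPM in post-symptomatic HD striatum and 552 and 514 CPM in the matching cortex. In pre-symptomatic HD mice it read 634 and 512 CPM in striatum and 645 and 742 CPM in cortex. WT striatum held 692 CPM at 13 weeks and 844 CPM at 8 weeks, while WT cortex held 562 and 506 CPM. At each age, striatal libraries were below cortical ones in HD and above them in WT. Over all libraries the regions did not differ beyond their spread (log2 0.05, SE 0.13, adjusted p = 0.847), and the sign turned when any 1 WT library was left out, with values from -0.09 to -0.01. Fitted by genotype, a choice made after the data were seen, the difference was -0.19 in HD (SE 0.12, adjusted p = 0.341 by edgeR). In WT it was 0.52 (SE 0.17, adjusted p = 0.0678 by edgeR). The spread behind the WT p-values came mostly from the HD libraries. Leaving out an HD library can therefore move a WT p-value while the WT libraries stay the same. Without replicate 1 or replicate 2 of pre-symptomatic HD striatum, the WT value stayed at 0.52 and passed the threshold (adjusted p = 0.0333 and 0.0211 by edgeR). Those fits called 17.2% and 17.7% of all genes. Leaving out a WT library leaves 1 pair of WT libraries. The WT value was then 0.74 without either library of 13 weeks, and 0.30 and 0.31 without striatum and cortex of 8 weeks. The difference between genotypes was -0.71 (SE 0.20, 95% interval -1.10 to -0.31). The interval is not adjusted for the number of genes or for the choice of this row after its values were seen. As a comparison of HD with WT it is given without a p-value, in a contrast where 0% of all genes were called. With 1 library left out it ran from -0.93 to -0.49.

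**Figure D2:**
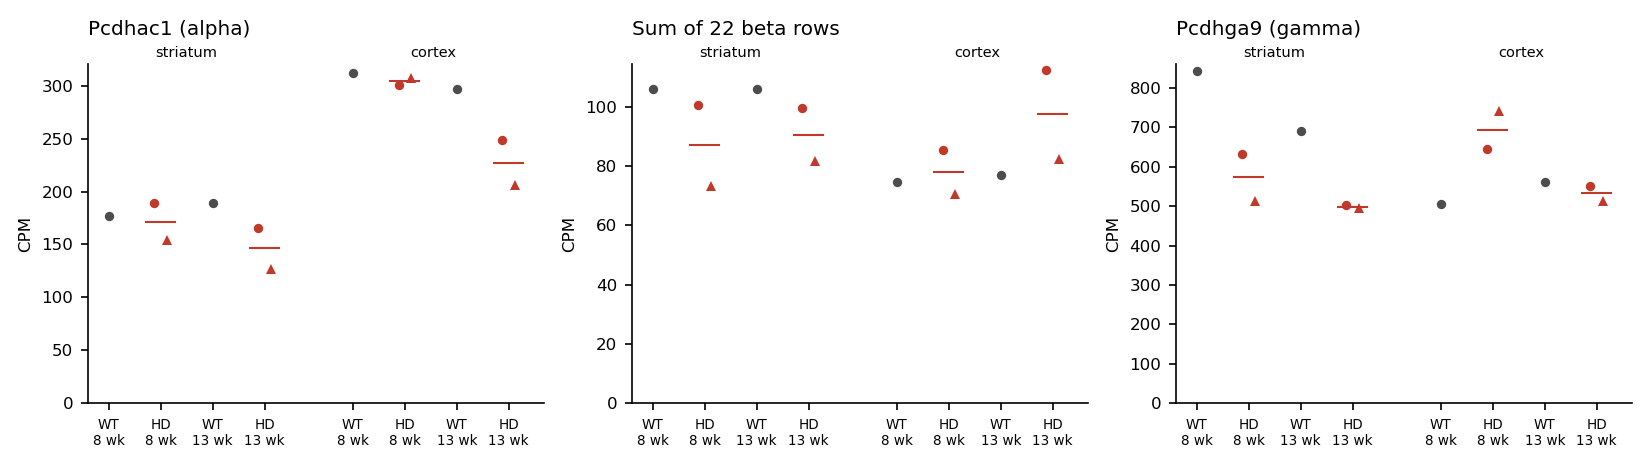
Level in CPM (y axis, from 0) of Pcdhac1, of the sum over 22 beta rows and of Pcdhga9, by region, genotype and age (wk, weeks); each point is a library (circle, replicate 1; triangle, replicate 2; red, HD; grey, WT) and each line an HD group mean of 2. Pcdhac1 lies between 127 and 189 CPM in striatum and between 206 and 311 CPM in cortex, while Pcdhga9 changes order between the regions with genotype.

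The level of Pcdhac1 was 0.209 to 0.330 of that of Pcdhga9 in striatal libraries and 0.400 to 0.616 of it in cortical ones. The libraries read transcripts at their 3′ ends, so levels were not divided by length. Summed over its 22 rows, the beta cluster had 73.5 to 106 CPM in striatum and 70.8 to 113 CPM in cortex, and these ranges overlapped. Of the 19 beta rows tested between regions, 12 had positive and 7 negative differences (median 0.20 on the log2 scale, beside 0.01 over all genes), and 0 passed the edgeR test. The lowest adjusted p among them was 0.142, for Pcdhb7, the highest beta row. Its level was 10.4 to 21.4 CPM in the striatal and 8.56 to 14.6 CPM in the cortical libraries, with a log2 difference of 0.38 (SE 0.17). Without the striatal library that stood apart, Pcdhb7 passed the threshold (0.48, adjusted p = 0.0390 by edgeR), beside 25.4% of all genes. Without replicate 1 of pre-symptomatic HD cortex, Pcdhb18 passed it. The share of all genes called in that fit is not given here, so nothing is read from this call. Among all 25 members, 2 had an unadjusted p under 0.05, against 33.4% of all genes.

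For the course of disease, the stages of HD were compared in the 8 HD libraries, with a term for region. The filter on low counts kept 24 members, and 35 were too low to be tested. Apart from Pcdhga3, described further on, 0 members passed the edgeR test, beside 6.45% of all genes (1.93% higher and 4.53% lower after onset), and DESeq2 called 2 others, Pcdhb12 and Pcdhb9, beside 12% of all genes. Unadjusted p-values under 0.05 were found for 7 of 24 members, Pcdhga3 included, and for 22.6% of all genes. Standard errors ran from 0.11 for Pcdhga9 to 0.73 for Pcdhb13, so that only the abundant rows were measured closely. Both cluster outputs had negative differences, -0.31 for Pcdhac1 (SE 0.13, adjusted p = 0.185 by edgeR) and -0.28 for Pcdhga9 (SE 0.11, adjusted p = 0.181 by edgeR). In both regions, the post-symptomatic Pcdhga9 libraries lay below the pre-symptomatic ones, although in striatum the gap was narrow, between 502 and 512 CPM. Without the striatal library that stood apart, Pcdhga9 passed the threshold (-0.35, adjusted p = 0.0456 by edgeR) and Pcdhac1 did not (-0.39, adjusted p = 0.0610 by edgeR). That fit called 10.6% of all genes. Scaling to total counts in place of TMM moved the median of all genes from 0.00 to 0.21, and the values became -0.11 for Pcdhac1 and -0.07 for Pcdhga9. Cortical markers (7 genes) summed to 17141 and 18913 CPM in pre-symptomatic and 7985 and 7447 CPM in post-symptomatic HD cortex, and their part in these values was not tested.

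In the beta cluster, 12 of 19 tested rows had positive and 7 negative differences between the stages, with a median of 0.30 on the log2 scale beside 0.00 over all genes. Pcdhb12 and Pcdhb9 are named here because DESeq2 called them, a choice made after their values were seen. Pcdhb12 read 6.89 and 6.09 CPM in post-symptomatic striatum and 2.69 and 1.51 CPM in pre-symptomatic striatum. In cortex it read 8.93 and 4.24 CPM after and 2.30 and 4.13 CPM before symptoms. The stages did not overlap in either region, although in cortex the gap was narrow, between 4.13 and 4.24 CPM. The log2 difference was 1.33 (SE 0.37, adjusted p = 0.0637 by edgeR and 0.0136 by DESeq2). WT striatum held 4.38 CPM at 13 weeks and 4.82 CPM at 8 weeks, and WT cortex 5.08 and 2.29 CPM. From 8 to 13 weeks the log2 ratio of levels in cortex was 1.03 in HD and 1.15 in WT. In striatum it was 1.63 in HD and -0.14 in WT. The exon of Pcdhb12 (chr18:37435621-37438654) is overlapped on the opposite strand by Gm37446, and whether the counting used strand is not stated, so its reads could come from either.

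Pcdhb9 (chr18:37400855-37403909) read 8.39 and 11.97 CPM in post-symptomatic striatum against 5.62 and 6.03 CPM before symptoms. In cortex the values were 10.2 and 7.94 CPM after and 4.40 and 6.20 CPM before. The log2 difference was 0.80 (SE 0.24, adjusted p = 0.0779 by edgeR and 0.0331 by DESeq2), again without overlap between stages. WT libraries had 7.15 and 7.28 CPM of Pcdhb9 at 13 weeks and 7.03 and 4.76 CPM at 8 weeks, all below the post-symptomatic HD libraries. Pcdhb3 and Pcdhb15 were likewise higher in every post-symptomatic library of a region (log2 0.73 and 1.46, adjusted p = 0.191 and 0.201 by edgeR). In all, 7 of 24 members did not overlap between the stages in both regions, beside 20.7% of all genes. They were 4 beta rows that were higher and 3 gamma rows (Pcdhga3, Pcdhga9 and Pcdhga11) that were lower. Pcdhb13 had the lowest beta value in striatum, from 3.75 and 2.58 CPM before to 0.559 and 0.214 CPM after symptoms (log2 -2.94, SE 0.83, adjusted p = 0.196 by edgeR). In cortex its 4 values of 0.883 to 1.63 CPM overlapped.

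**Figure D3:**
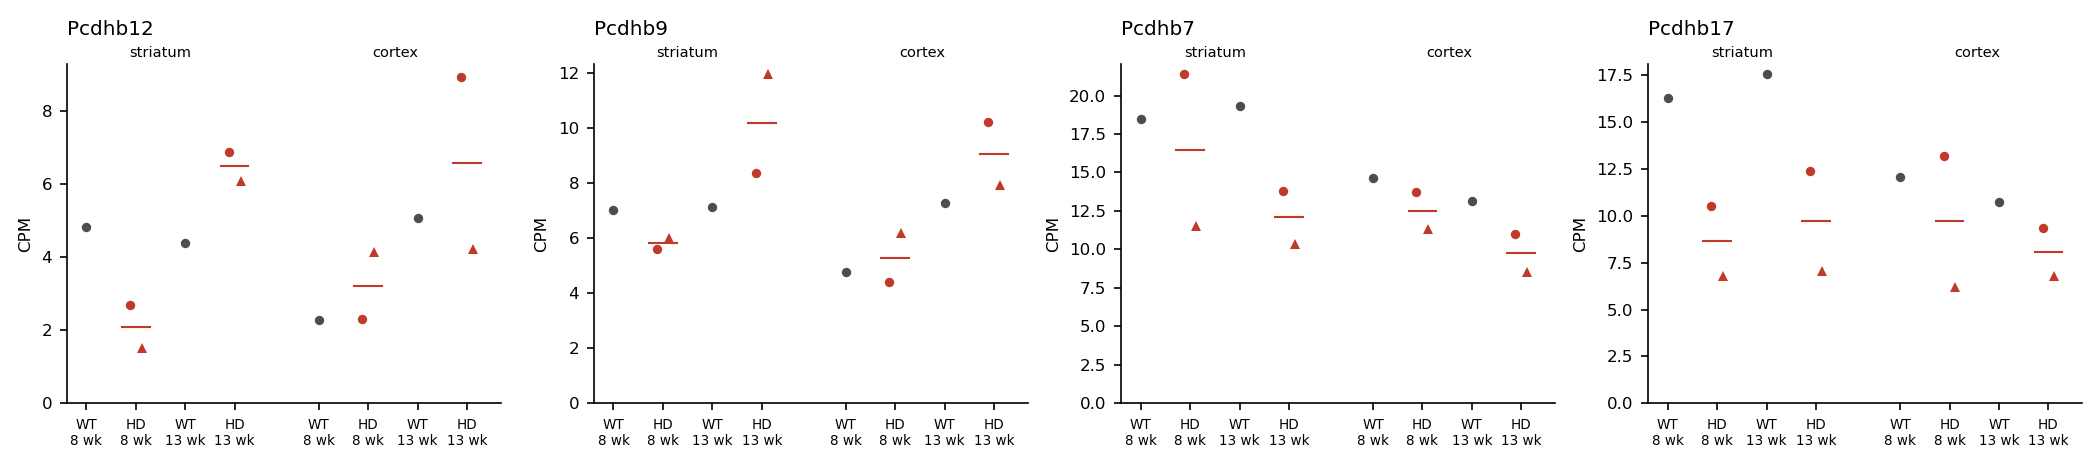
Level in CPM (y axis, from 0) of Pcdhb12, Pcdhb9, Pcdhb7 and Pcdhb17 by region, genotype and age (wk, weeks), with points, colours and lines as in the plot of cluster levels. Pcdhb12 and Pcdhb9 are higher at 13 than at 8 weeks in each HD region, and Pcdhb7 and Pcdhb17 are lower in the HD than in the WT libraries at 13 weeks.

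Within single regions, 25 members were tested and 0 were called, in striatum (beside 0.16% of all genes) and in cortex (beside 0.591%). Unadjusted edgeR p-values under 0.05 were found for 5 members in striatum and 3 in cortex, Pcdhga3 counted, and for 13% and 14.3% of all genes. DESeq2 called 1 member in striatum, Pcdhga3, and 0 in cortex. The shares of all genes called by DESeq2 within single regions are not given here. Pcdhga3 is the row the family was chosen for, so nothing is read from that call.

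**Figure D4:**
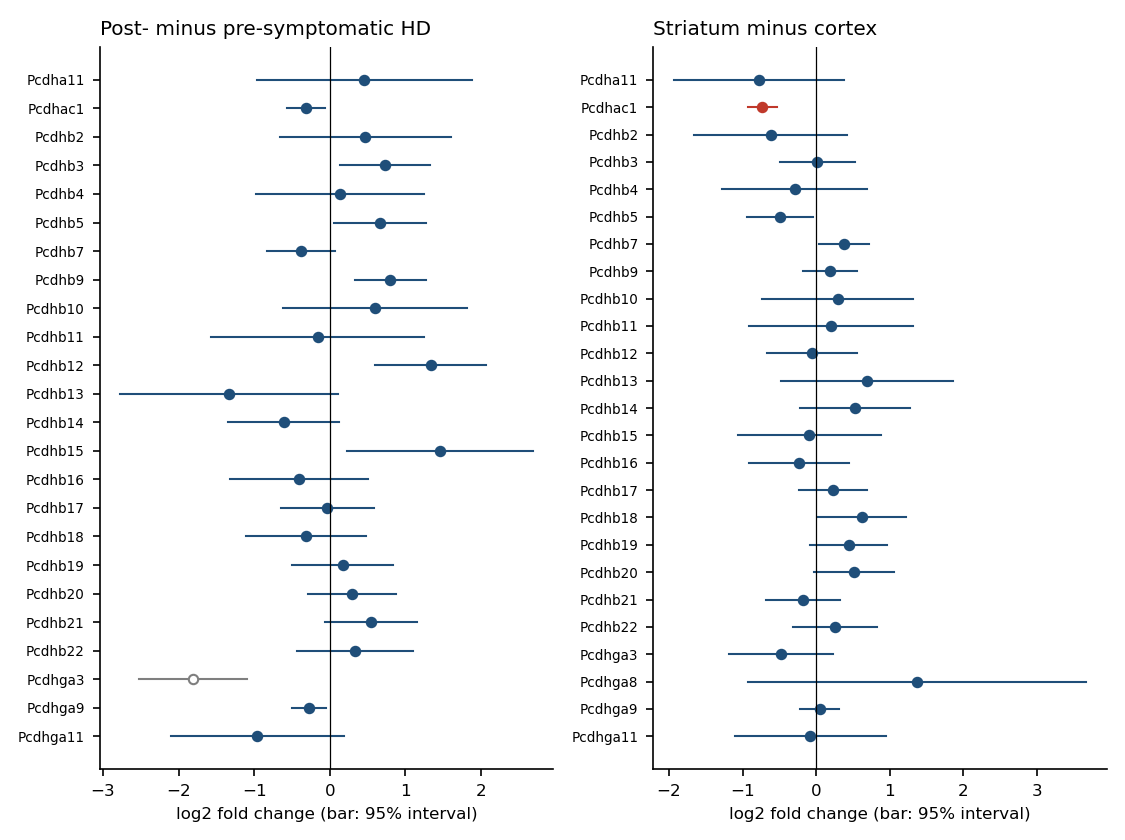
Log2 fold changes (x axis) of the 24 members tested between HD stages (left) and the 25 tested between regions (right), with 95% intervals from edgeR fits over all genes; red marks the member called, and the open grey point is Pcdhga3, whose stage difference is given without a test. Intervals are narrow for Pcdhac1 and Pcdhga9 and wide for most beta rows, and only Pcdhac1, between regions, is red.

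Pcdhga3, the gamma-A row for which the family was chosen, has its variable exon at chr18:37674307-37676907, upstream of that of Pcdhga9 at chr18:37736936-37739543. In pre-symptomatic HD striatum it had 77 and 47 reads (9.02 and 5.06 CPM) and in pre-symptomatic HD cortex 99 and 43 reads (10.4 and 4.68 CPM). WT libraries of the same age had 1 read in striatum and 11 in cortex (0.100 and 0.935 CPM). At 13 weeks, HD striatum held 15 and 17 reads and HD cortex 29 and 30 (1.40, 1.82, 2.49 and 2.65 CPM). WT libraries at 13 weeks had 31 reads in striatum and 32 in cortex (2.95 and 2.71 CPM). The 4 pre-symptomatic HD libraries were thus the highest and the 2 WT libraries of that age the lowest, while at 13 weeks both HD groups lay below WT. Within the pre-symptomatic HD mice, the male libraries (replicate 1) were above the female ones in both regions.

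As a ratio of CPM, pre-symptomatic HD was 69.3 times WT in striatum, with an exact 95% counting interval of 12.2 to 2757, since WT rests on 1 read. In cortex the ratio was 8.10 (interval 4.39 to 16.6). At 13 weeks it was 0.539 in striatum (0.319 to 0.913) and 0.948 in cortex (0.607 to 1.51). These intervals cover counting error alone, and the WT side is 1 library in each case. Fitted over all 12 libraries, the log2 difference of HD and WT mice was 3.84 before and -0.49 after symptom onset. The former was 3.08 without the WT striatum of 8 weeks, where the row had its 1 read, and 5.88 without the WT cortex of that age. Between HD stages the log2 difference was -1.81, past the threshold, but not when any of the 4 post-symptomatic libraries or replicate 1 of pre-symptomatic HD cortex was left out. Against WT mice the row passed the threshold before onset, the only one of 25 members to do so (beside 2.1% of all genes, 1.95% higher and 0.15% lower), but not without that WT library or without replicate 1 of pre-symptomatic HD cortex. These contrasts chose the row or share its libraries. Its passing a threshold in them is therefore no test, and nothing is read from them about the row or the family.

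Even where it was highest, Pcdhga3 was a small part of the gamma reads. It took 1.37% and 0.970% of them in pre-symptomatic HD striatum and 1.56% and 0.621% in cortex, against 0.0119% (exact binomial 95% interval 0.000300% to 0.0661%) in WT striatum and 0.184% (0.0919% to 0.329%) in WT cortex. In HD and WT mice at 13 weeks the share was 0.275% to 0.508%. Its neighbours along the cluster hardly had reads. Pcdhga1 had 8 reads in replicate 1 of pre-symptomatic HD striatum and 0 or 1 in each of the others, Pcdhga4 had 3 reads in replicate 2 of pre-symptomatic HD cortex and 0 elsewhere, and Pcdhgb1 had 0 to 6. Between regions, a comparison the choice did not use, Pcdhga3 had a log2 difference of -0.47 (SE 0.36, adjusted p = 0.399 by edgeR).

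Pcdhga11, another gamma-A row, came next among the low gamma rows by mean level and is described because its values resembled those of Pcdhga3, a choice made after they were seen. It had 39 and 19 reads in pre-symptomatic HD striatum, 19 and 19 in cortex, and 0 and 2 in the WT libraries of that age. HD striatum was at 10.8 times a floor of 3 reads in the WT striatal library. The lower end of the exact 95% counting interval of the ratio to WT was below this, at 8.51. In cortex the ratio was 11.9 (exact 95% counting interval 3.08 to 102). At 13 weeks it had 4 and 19 reads in HD striatum, 12 and 21 in HD cortex, and 7 and 13 in WT striatum and cortex. Its exons are overlapped on the other strand by Gm26672. Between HD stages the log2 difference of Pcdhga11 was -0.96 (SE 0.58, adjusted p = 0.371 by edgeR).

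The other 19 gamma rows summed to 9.60 and 2.04 CPM in pre-symptomatic HD striatum and 8.06 and 4.78 CPM in pre-symptomatic HD cortex. Their sum was 2.47 to 4.64 CPM in post-symptomatic HD and 0.765 to 2.41 CPM in WT libraries. The lower of the pre-symptomatic striatal values was that of the library that stood apart, and it lay within the range of the WT libraries. As reads, the 4 pre-symptomatic HD libraries held 82, 19, 77 and 44 in these 19 rows, the post-symptomatic HD libraries 28 to 54 and the WT libraries 9 to 24. Alpha rows without Pcdhac1 summed to 1.18 to 5.84 CPM in HD and 0.858 to 2.71 CPM in WT, and these ranges overlapped.

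**Figure D5:**
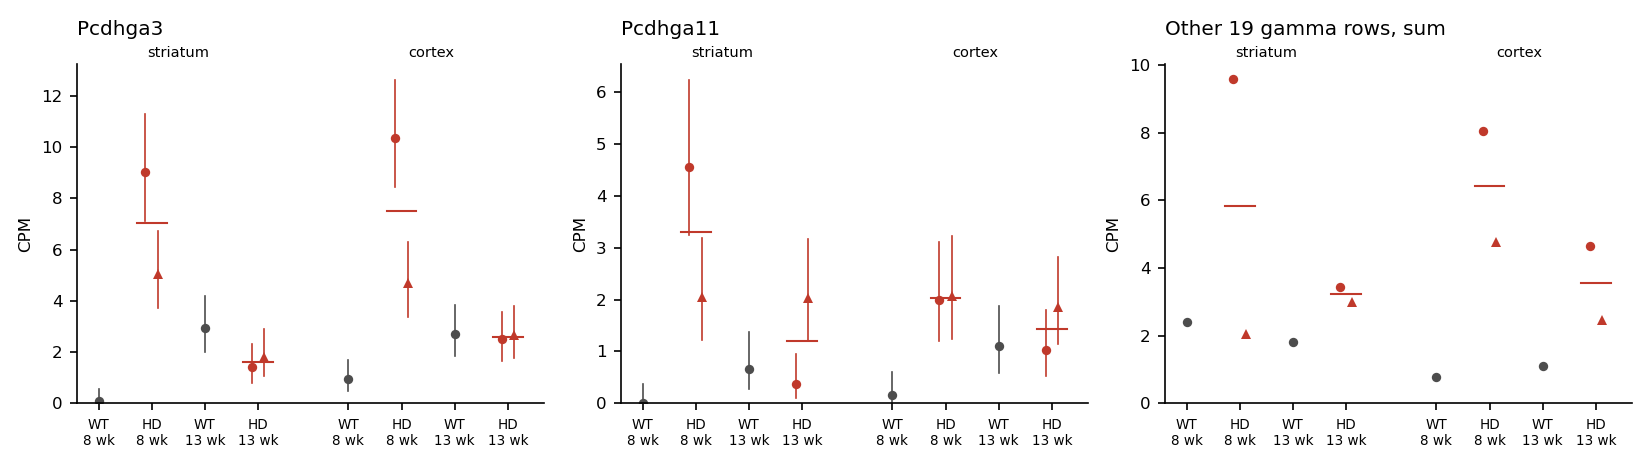
Level in CPM (y axis, from 0) of Pcdhga3, Pcdhga11 and the sum of the other 19 gamma rows without Pcdhga9, by region, genotype and age (wk, weeks), with points, colours and group lines as in the plot of cluster levels; thin vertical lines are exact 95% Poisson intervals of each library's count. Pcdhga3 stands between 4.68 and 10.4 CPM in the pre-symptomatic HD libraries and at 2.95 CPM or less in the others.

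The C-type isoforms other than Pcdhac1 had few reads of their own. Pcdhac2 had 0 to 6 reads in a library, Pcdhgc3 had 0 to 7, Pcdhgc4 had 0 to 4 and Pcdhgc5 had 0 to 6. With a floor of 3 reads, differences between conditions in these rows were not detectable at this depth. Of the remaining alpha rows, Pcdha11 was the highest, with 2 to 36 reads in HD and 3 to 6 in WT libraries. Among the other 12 alpha rows, the highest count in a library was 15, in Pcdha1.

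For HD against WT mice at 13 weeks, 0 of 25 members passed the threshold (beside 7.36% of all genes, 3.1% higher and 4.26% lower). This is a description, since the family was chosen from a difference of HD and WT. Of the members, 3 had an unadjusted p under 0.05, against 22.3% of all genes. In both regions, 10 of the 25 members had HD libraries on 1 side of the WT library, beside 44% of all genes. The 5 that were higher in HD were Pcdha11, Pcdhb2, Pcdhb3, Pcdhb9 and Pcdhb21, and the 5 that were lower were Pcdhac1, Pcdhb7, Pcdhb17, Pcdhga3 and Pcdhga9. The alpha output, Pcdhac1, was 0.774 times the WT level in striatum and 0.766 times in cortex. The gamma output, Pcdhga9, was 0.720 times the WT level in striatum and 0.949 times in cortex. Striatal markers summed to 1385 and 1410 CPM in HD and 7733 CPM in WT striatum at this age, and cortical markers to 7985 and 7447 CPM in HD and 17170 CPM in WT cortex, and their part in these ratios was not tested. Before symptom onset, Pcdhac1 was at 0.970 and 0.976 times the WT level, whereas Pcdhga9 was at 0.679 times in striatum and 1.37 times in cortex. At that age 7 of 25 members lay on 1 side of the WT library in both regions (beside 30.6% of all genes), Pcdhb2, Pcdhb4, Pcdhb13, Pcdhb16, Pcdhga3 and Pcdhga11 higher and Pcdhb5 lower in HD. With sex as a term, Pcdhb7 and Pcdhb17 passed the threshold at 13 weeks, where both WT libraries were female. The share of all genes called in that fit is not given here, so nothing is read from these rows about the family.

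Between WT mice of 13 and 8 weeks, 0 of 25 members were called by edgeR (beside 0.0136% of all genes) and by DESeq2, 2 of them had an unadjusted p under 0.05 (1.82% of all genes), and age cannot be told apart from sex. The change with age in HD less that in WT holds the values by which Pcdhga3 was chosen, so its counts are a description. There, 0 members passed the threshold with edgeR (beside 0.116% of all genes), 2 had an unadjusted p under 0.05 (8.92% of all genes), and with DESeq2 Pcdhga3 passed it.

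Genes that act on these clusters or with their products were taken from lists, which were chosen with earlier results of these data known. Among 24 chromatin regulators of the clusters, 23 were listed. Between HD stages, Wiz, a zinc finger protein that acts with CTCF and cohesin on chromatin, was higher after symptoms (log2 0.76, SE 0.13, adjusted p = 0.0107 by edgeR). Tet3, which oxidizes methylated cytosine, was lower (-0.71, SE 0.14, adjusted p = 0.0171 by edgeR). These were 2 of 22 tested, beside 6.45% of all genes, with a list median of 0.15. Scaled to total counts, 7 regulators were called higher and 1 lower, beside 8.78% and 2.94% of all genes. Against WT mice at 13 weeks, 6 of 23 were higher in HD and 0 lower, beside 3.1% of all genes called higher. Those with the lowest adjusted p were Smc3 and Stag2, which are cohesin subunits, Nipbl, which loads cohesin on DNA, and Tet1, a relative of Tet3. Smc3 was higher in HD by 1.23 on the log2 scale (SE 0.16, adjusted p = 0.00207 by edgeR) and Nipbl by 0.67 (SE 0.13, adjusted p = 0.0107 by edgeR). The WT side is 1 library in each region, female at 13 weeks and male at 8 weeks, and no cause of these differences was tested. At 8 weeks, 4 of 23 were higher in HD (beside 1.95%), namely Tet3, Nipbl, Smc3 and Tet1, and 0 lower, and Tet1 was not called with total counts. The list medians were 0.41 and 0.43, beside 0.01 and -0.01 over all genes tested. Between regions, Nipbl and Stag1 were higher in striatum (0.39 and 0.44) and no other regulator was called, so that 2 of 23 were higher beside 8.51% of all genes.

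Partners of protocadherins at the membrane and downstream comprised 26 genes, all listed. Cyfip2, a subunit of the WAVE complex that clustered and other protocadherins can recruit to steer actin, was lower after than before symptoms in HD (log2 -0.59, SE 0.11, adjusted p = 0.0145 by edgeR) and was the only one of 25 tested to be called. It was also lower in HD than in WT at 13 weeks (-0.63, adjusted p = 0.0173 by edgeR), and 0 other partners were called there. Fyn, a kinase, was higher in HD than in WT at 8 weeks (0.75, adjusted p = 0.0349 by edgeR), but not with total counts. Between regions 4 of 26 were lower in striatum (beside 12.1% of all genes), Cyfip2 (-0.67), Ptk2 (-0.55), Nlgn2 (-0.42) and Prkca (-0.84), and 1 was higher, beside 8.51%. Ptk2 is the focal adhesion kinase to which the shared cytoplasmic tails of these proteins bind.

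Protocadherins outside the clusters, each with a gene of its own, moved in more than 1 direction. Of 13 in the list, 12 were listed and 11 tested. Pcdh7 was lower after than before symptoms in HD mice (log2 -0.84, SE 0.15, adjusted p = 0.0142 by edgeR), and Pcdh19 was higher (0.61, SE 0.14, adjusted p = 0.0290 by edgeR). Between regions 3 of 11 were lower in striatum (beside 12.1% of all genes), among them Pcdh7 (-1.34) and Pcdh19 (-0.43). Pcdh11x and Pcdh17 were higher (0.57 and 0.74), which is 2 of 11 beside 8.51%. With total counts 2 were lower and 2 higher, beside 10.1% and 11.3% of all genes. Pcdh7 was also higher in HD than in WT at 8 weeks (log2 1.20, SE 0.21, adjusted p = 0.0160 by edgeR), and at 13 weeks 0 of 11 were called by edgeR and 1 by DESeq2. Without the striatal library that stood apart, 4 chromatin regulators, 4 partners and 2 of these protocadherins were called between HD stages, beside 10.6% of all genes in place of 6.45%.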

How the data were processed

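Striatal and cortical RNA of R6/2 and WT mice was prepared with the Lexogen QuantSeq kit, per the labels, and the authors deposited raw counts of reads per gene symbol for each of 12 libraries. The submitters' processing notes name Bowtie2, bedtools and mm10. The annotation, the counting rule and the use of strand are not given in the sources used here. Samples were grouped by their labels. Genes passing filterByExpr (minimum count of 10) were fitted in R 4.3.3 with edgeR 4.0.16 (TMM, robust quasi-likelihood test, Benjamini-Hochberg adjustment over all genes, threshold 0.05), with region or group as terms, and DESeq2 1.42.0 as an alternative. Members and lists were chosen with earlier results of these data known. Members were named by a rule covering Pcdhga3 and its neighbours, C-types, the highest row of each cluster and called members, and up to 4 genes per list and comparison with the lowest adjusted p. Chromosome 18 gene positions came from GENCODE M21. The deposited counts carry no molecular identifiers, so copies of 1 molecule cannot be told apart. The intervals treat each read as independent and cover counting error at most. The tests were checked on simulated counts.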

Additional observations from a re-analysis of the deposited data

Results flagged for a closer look

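The change of Pcdhga3 with age differed in direction between genotypes. In both regions, the HD libraries were lower at 13 than at 8 weeks and the WT libraries were higher, with a log2 difference between the changes of -4.33. It was -6.34 without the WT cortex and -3.54 without the WT striatum of 8 weeks. The contrast holds the values by which the row was chosen, so it is given as a description, with no p-value. The same pattern of signs was seen for Pcdhga11 (-4.15), where WT rests on 0 and 2 reads at 8 weeks, and this difference is likewise given without a p-value. At each age Pcdhga9 was lower in striatum than in cortex in HD libraries and higher in WT libraries, with a log2 difference between genotypes of -0.71. The row was flagged for this order, so the difference is given without a p-value, and 0% of all genes were called in that contrast.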

How the results depend on the processing

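Between HD stages, 1 member passed the threshold in the main analysis, 0 at an adjusted p under 0.01, 3 with DESeq2, 3 with total counts as library size (Pcdhga3, Pcdhb9 and Pcdhb12 in both) and 0 to 2 with 1 library left out. Of all genes, 6.45% were called in the main analysis, 12% with DESeq2 and 11.7% with total counts. In striatum alone the count of 0 became 1 with DESeq2 (Pcdhga3), a fit whose share of all genes called is not given here. Between regions the count of 1 ran from 1 to 2 with 1 library left out. Against WT mice, the count of 0 at 13 weeks became 2 with sex as a term, a fit whose share of all genes called is not given here. The count of 1 at 8 weeks became 0 at an adjusted p under 0.01 and with at least 1 CPM in every library, 2 with DESeq2 and without a filter, and ran from 0 to 2 with 1 library left out. There, DESeq2 called 4.58% of all genes and the main analysis 2.1%. The filter of at least 1 CPM removed Pcdhga3, the row behind the count of 1, before any test. It read 0.100 and 0.935 CPM in the WT libraries of 8 weeks, so that setting does not test the call. The count of 0 for the difference between changes with age became 1 with DESeq2 and without a filter, and was 0 to 1 with 1 library left out. The Pcdhga9 difference between regions ran from -0.093 to 0.13 with 1 library left out, and turned to -0.0077 without either WT library of 13 weeks and to -0.093 and -0.092 without either of 8 weeks, when WT is left with 1 pair of libraries.

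Cluster levels over all libraries were 225 CPM for alpha, 89.2 CPM for beta and 609 CPM for gamma as sums. The highest row alone gave 14.5 CPM for beta, the lowest row 0 for each cluster, and the median row 0.0783, 3.44 and 0.125 CPM. With totals without Rn45s as library size, gamma was at 679.7 CPM. Over all genes, the split of higher to lower calls was 269 to 631 between HD stages and became 1224 to 410 with total counts. The fit with the replicate number as a block left the counts of members called at 1 between HD stages and 1 between regions, and changed none of the other counts. Deviations of libraries with the same number correlated from -0.03 to 0.19, and the numbers were not taken as a pairing. Merging identical rows was not run, since no members with reads were identical. The depth limits rows under 10 reads, among them most alpha and gamma rows.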
